A study of Mus musculus with 6 samples.

Results

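The nuclear genes for complexes II to V of the mitochondrial respiratory chain were examined in the embryonic upper jaw. They were chosen by gene symbol, as the protein-coding genes whose GENCODE symbol is Sdha to Sdhd, Cyc1 or Cycs, or begins with Uqcr, Cox4 to Cox8 or Atp5. This rule found 49 of the 53801 genes in the count files, of which 21967 were protein-coding. The 49 genes comprised 4 of complex II, 9 of complex III, Cycs for cytochrome c, 18 of complex IV and 17 of complex V. The symbols also took in 2 genes of proteins other than structural subunits, Cox7a2l, known as a supercomplex factor, and Atp5s, associated with ATP synthase. They left out the complex IV protein Ndufa4 and the ATP synthase protein Usmg5, whose symbols do not match. A further 8 rows with matching symbols were pseudogenes with at most 24 counts each over the 6 samples and were left aside. By measurement, 45 of the 49 genes had enough counts to be tested. The remaining genes, Cox6a2, Cox7b2, Cox8b and Cox8c, are isoforms of muscle or testis.

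RNA-seq was performed on maxillary prominences of mouse embryos (strain label C57BL/6, with the line and the WT mice given as C57BL/6J) at E12.5. The 3 WT samples were wild type. The 3 samples labelled Wnt1cre; Rosa26Dlx2/- (Dlx2OE) carried Wnt1cre, which recombines in neural crest cells and their descendants, and 1 copy of a Dlx2-3xFlag cassette that Cre switches on at the Rosa26 locus behind a CAG promoter. Surface epithelium, blood and endothelial cells of the prominence are outside that lineage. No samples with Cre alone or the cassette alone were in the comparison. The RNA came from littermates (7 by the sample labels, 6 by the published methods), so that a sample may hold several embryos. Total counts on genes ranged from 26155500 to 31308813. Dlx2 itself was measured at 42.9, 35.0 and 45.2 CPM (counts scaled to a common library size by the TMM method, the unit of all levels here) in WT samples 1 to 3 and at 119, 131 and 123 CPM in Dlx2OE samples 1 to 3. The groups did not overlap, and the log2 fold change was 1.60 ± 0.12 (SE, n = 3 per group, edgeR quasi-likelihood test, adjusted p = 0.00241).

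Complex II oxidizes succinate and passes the electrons to ubiquinone. Complex III moves them from ubiquinol to cytochrome c, complex IV from cytochrome c to oxygen, and complex V, the ATP synthase, uses the resulting proton gradient to make ATP. The catalytic centers of complex IV, the cytochrome b of complex III and part of the proton channel of complex V are encoded in mitochondrial DNA (mtDNA), so that nuclear and mitochondrial genes must be expressed together. Around these centers sit many small nuclear-encoded subunits that serve assembly, stability and dimer formation, and some of those in complex IV have isoforms for muscle, testis or low oxygen.

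Genes of small nuclear-encoded subunits in complexes III, IV and V fell in Dlx2OE, and no gene of the group rose. At an adjusted p under 0.05 at any fold change, 8 of 45 tested genes were lower in Dlx2OE and 0 were higher. Those that fell were Uqcrb, Uqcr10 and Uqcr11 of complex III, Cox7c and Cox4i1 of complex IV and Atp5k, Atp5e and Atp5j of complex V, at 44.9% to 71.9% of the WT level. Of all 17514 genes tested, 3.46% were lower and 2.99% were higher by the same rule. Without adjustment, 29 of the 45 passed a p of 0.05 as lower and 0 as higher, where 15.4% of all genes passed as lower, and DESeq2 also called 0 as higher. With a replicate block, 18 were called lower, against 3.16% of all genes, although the sample numbers were not found to pair the samples. Adding a log2 fold change below -1 left Atp5k, Uqcr11 and Uqcr10, against 1.62% of all genes. The median log2 fold change of the 45 genes was -0.48, and the median of all genes was 0.0028. A value below 0 was seen in 40 of the 45 genes, and the 5 above 0 (Cox4i2, Cyc1, Sdha, Cox7a1 and Atp5s) did not pass the test. In 26 genes all 3 Dlx2OE samples were below all 3 WT samples, where 17.3% of all genes were so ordered. In 0 genes were they all above, against 16.7% of all genes. In bulk tissue, fewer cells of a type and less RNA per cell cannot be told apart.

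WT sample 3 stood apart from the other WT samples in these genes. It was the lowest WT sample in 39 of 45 genes, and in 26 of these it lay between the other WT samples and all Dlx2OE samples. It fell within the range of the Dlx2OE samples in 16 genes and below all of them in 2. Relative to the mean of WT samples 1 and 2, its log2 level differed by a median of -0.53 in the 45 genes and of 0.012 in all genes. A similar order was seen outside these genes. Summed levels in WT samples 1 to 3 were 95344, 100715 and 60600 CPM for 78 cytoplasmic ribosomal protein genes. They were 3303, 3259 and 2280 CPM for 35 nuclear complex I genes and 48623, 50886 and 34765 CPM for 13 mtDNA genes. In all tested genes under 1000 bases, median log2 levels relative to the mean of the 6 samples were 0.28, 0.34 and -0.022. The cause was not tested. Without WT sample 3, 29 genes of the group were called lower (7.14% of all genes), with a median of -0.63 over the same 45 genes. In 37 genes all Dlx2OE samples were below WT samples 1 and 2. Other samples decided the calls in the opposite direction. With edgeR, 0 genes were called without WT sample 1 (24 at an unadjusted p under 0.05), without WT sample 2 (22), without Dlx2OE sample 2 (25) or without Dlx2OE sample 3 (24). In those fits the share of all genes called lower was also small, at 0.567%, 0.222%, 0.4% and 0.793%. Without Dlx2OE sample 1, 13 genes were called, against 5.33% of all genes. The number of calls therefore rested on single samples, while the median stayed between -0.63 and -0.43 in these fits.

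**Figure D1:**
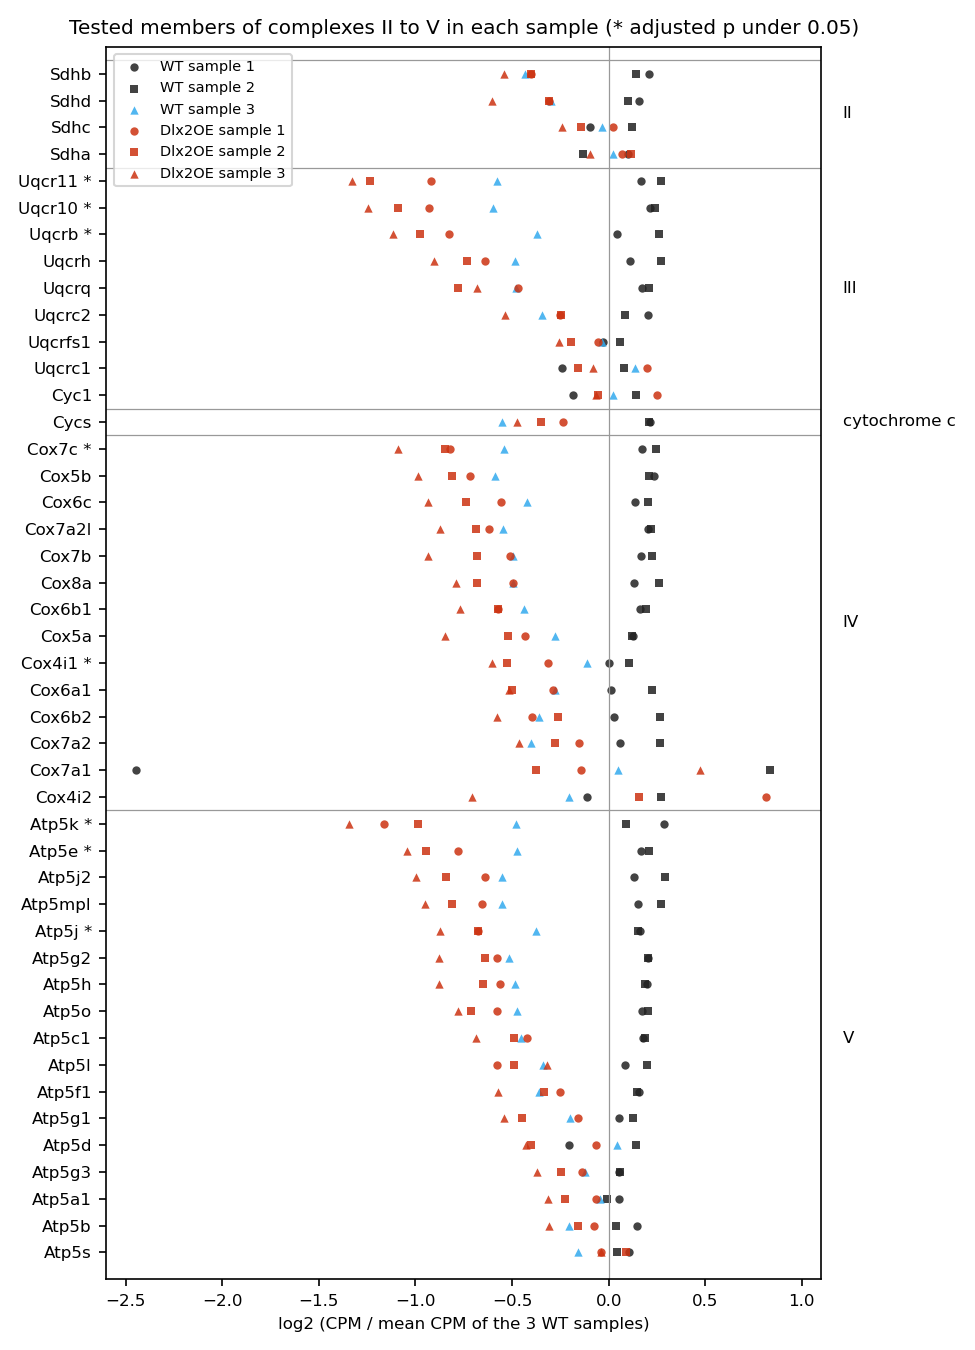
Level of each of the 45 tested genes in each sample, as log2 of its CPM over the mean CPM of the 3 WT samples (x axis), grouped by complex. In most genes WT samples 1 and 2 (black) lie to the right, Dlx2OE samples (red) to the left and WT sample 3 (blue) between them; asterisks mark the 8 genes with an adjusted p under 0.05.

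Other features of the libraries moved with genotype. The summed level of 9 erythroid markers was 3274 to 4350 CPM in WT and 1960 to 2537 CPM in Dlx2OE, with 3 of 9 called lower (3.46% of all genes were), and that of 6 macrophage markers was 81.0 to 87.5 against 53.0 to 57.7 CPM, with 3 of 6 called lower. With the length and GC correction these counts were 2 and 1. The 6 markers of facial mesenchyme were all measured in every sample, with sums of 2152 to 2636 CPM in WT and 2867 to 3201 CPM in Dlx2OE and 1 of 6 called higher. Of 8 epithelial markers 2, of 6 endothelial 1 and of 6 pericyte 1 were called lower, and none of 6 neuronal, 4 glial and 8 muscle markers was called. Log2 fold changes were above 0 in 4 of 8 epithelial, 0 of 6 endothelial and 1 of 5 tested pericyte markers. They were above 0 in 6 of 6 neuronal (median 1.37), 3 of 4 glial and 0 of 7 tested muscle markers, and in 8807 of all 17514 genes. Epithelial sums were 632 to 1171 CPM in WT and 516 to 1708 CPM in Dlx2OE, and neuronal sums 61.2 to 294 and 182 to 872 CPM. The sums of each of these lists overlapped between genotypes, and among these markers only the pericyte gene Higd1b was at 0 in some samples. Read pairs assigned to no annotated feature, which can include those in introns, numbered 6.09, 6.67 and 6.31 per 100 counted on genes in WT samples 1 to 3. In Dlx2OE samples 1 to 3 they numbered 6.91, 9.62 and 19.7. Alignments that were not unique numbered 7.14, 7.66 and 6.31 per 100 in WT and 5.63, 5.97 and 6.15 in Dlx2OE. In neither measure did the groups overlap. The part of these features in the results was not tested.

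Some genes of the group, among those that fell and those that did not pass, have promoters with motifs of the nuclear respiratory factors. Among 250-base stretches upstream of RefSeq transcription starts in GRCm38.p6, 37 of the 49 genes had an entry. The NRF1 core, GCGC and GCGC with any 2 bases between them or GCATGCGC, stood on either strand in 9 of the 37 (24.3%) and in 6.40% of all 27025 promoters. The ETS core CCGGAAG, which GABP (NRF2) binds, stood in 8 (21.6%), against 7.05% of all. The YY1 core AAGATGGC stood in 0, against 1.59%, and at least 1 of the 3 motifs stood in 13 (35.1%), against 13.8%. Of the 8 genes that fell, 6 had an entry and 3 held a motif. These 3 are shown because they are the promoters of the genes that fell in which a match was found, with the match in capitals. The Uqcr11 stretch runs over chr10:80406831-80407071 and the Atp5e stretch over chr2:174464106-174464351, both on the reverse strand and cut where the first GENCODE exon begins. The Atp5k site, chr5:108434430-108434459 on the reverse strand, is given as 30 bases since the GENCODE exon starts further upstream than the RefSeq one.
Uqcr11: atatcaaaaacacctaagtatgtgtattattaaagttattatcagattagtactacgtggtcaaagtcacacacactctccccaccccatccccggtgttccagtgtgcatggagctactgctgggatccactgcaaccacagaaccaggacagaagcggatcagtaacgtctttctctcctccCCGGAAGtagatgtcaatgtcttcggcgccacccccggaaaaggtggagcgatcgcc
Atp5e: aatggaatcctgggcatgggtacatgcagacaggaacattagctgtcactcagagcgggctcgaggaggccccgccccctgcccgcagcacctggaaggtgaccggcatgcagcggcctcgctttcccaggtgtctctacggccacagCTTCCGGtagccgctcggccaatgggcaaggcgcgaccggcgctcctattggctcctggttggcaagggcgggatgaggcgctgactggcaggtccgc
Atp5k: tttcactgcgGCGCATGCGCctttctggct
In Uqcr11 the ETS core began 66 bases and in Atp5e, on the opposite strand, 102 bases before the RefSeq start. In Atp5k the gapped form of the NRF1 core began 50 bases and the other form, within it, 48 bases before the start. The motifs are also found in promoters of genes that did not pass the test, such as the NRF1 core in Sdha and Sdhb, and a match is a description of the letters, not of binding.

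In complex II, none of the 4 genes passed the test by edgeR or DESeq2, and 2 had an unadjusted p under 0.05. The catalytic flavoprotein gene Sdha, which oxidizes succinate, had 230, 196 and 219 CPM in WT and 226, 233 and 201 CPM in Dlx2OE, so that the groups overlapped. Its log2 fold change was 0.033 ± 0.11 (SE, adjusted p = 0.856 by edgeR). The iron-sulphur subunit gene Sdhb had 195, 186 and 125 CPM in WT and 127, 128 and 116 CPM in Dlx2OE. WT sample 3 was within the Dlx2OE range, and the log2 fold change of Sdhb was -0.45 ± 0.17 (SE, adjusted p = 0.128 by edgeR). Sdhd, a membrane anchor, had 137, 132 and 99.9 CPM against 99.2, 99.2 and 80.8 CPM. Its groups just failed to overlap, with a log2 fold change of -0.40 ± 0.15 (SE, adjusted p = 0.121 by edgeR). Without WT sample 3, Sdhb (-0.63, adjusted p = 0.0149) and Sdhd (-0.54, adjusted p = 0.0372) passed, and Sdha (0.036, adjusted p = 0.858) did not. Summed over the 4 genes, complex II in Dlx2OE was at 87.3% ± 6.72 of the WT mean (SD of the Dlx2OE samples, n = 3).

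In complex III the 5 small supernumerary subunits separated from the 4 larger ones. All 5 had a log2 fold change between -1.15 and -0.64, with a median of -0.97, and 3 passed the test. The other genes, the catalytic Cyc1 and Uqcrfs1 and the core proteins Uqcrc1 and Uqcrc2, had values between -0.34 and 0.051, and none passed by edgeR, also without adjustment, or by DESeq2. Without WT sample 3, Uqcrc2 passed (-0.50, adjusted p = 0.0488). Whether the subunit classes differed was not tested.

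Uqcr11 (ENSMUSG00000020163, chromosome 10, 80402997 to 80406830, reverse strand) encodes the smallest subunit of complex III. Its level was 81.3, 87.5 and 48.5 CPM in WT samples 1 to 3 and 38.2, 30.8 and 28.8 CPM in Dlx2OE samples 1 to 3. The groups did not overlap, and WT sample 3 lay nearer to the Dlx2OE samples than to the other WT samples. This gave a log2 fold change of -1.15 ± 0.22 (SE, adjusted p = 0.0297 by edgeR). Uqcr10 (ENSMUSG00000059534, chromosome 11, 4701973 to 4704342, reverse strand), a subunit beside cytochrome c1, had 135, 137 and 76.8 CPM in WT and 61.1, 54.6 and 49.0 CPM in Dlx2OE. All WT values were above all Dlx2OE values, with a log2 fold change of -1.08 ± 0.22 (SE, adjusted p = 0.0326 by edgeR). Uqcrb (ENSMUSG00000021520, chromosome 13, 66900617 to 66905378, reverse strand), which binds near the ubiquinone site, had 56.4, 65.7 and 42.4 CPM in WT and 30.8, 27.8 and 25.3 CPM in Dlx2OE. Here too WT sample 3 was the lowest of its group and above every Dlx2OE sample, and the log2 fold change was -0.97 ± 0.17 (SE, adjusted p = 0.0215 by edgeR). Of the windows of 100 bases in its exons, 8.89% also occur in another gene.

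The 2 supernumerary genes that did not pass, the hinge protein gene Uqcrh (-0.75, adjusted p = 0.0543) and Uqcrq (-0.64, adjusted p = 0.0755), were close to the threshold. Cyc1, the cytochrome c1 through which electrons leave the complex, had 91.6, 115 and 106 CPM in WT and 124, 100 and 99.5 CPM in Dlx2OE. Its groups overlapped, with Dlx2OE sample 1 above and WT sample 1 below all others, and with a log2 fold change of 0.051 ± 0.13 (SE, adjusted p = 0.808 by edgeR). The core protein gene Uqcrc1, at -0.0066 ± 0.14 (SE), was likewise between the samples of both groups. The sum over complex III was at 73.7% ± 7.33 of the WT mean (SD, n = 3).

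Cytochrome c (Cycs) shuttles electrons from complex III to complex IV. It had 162, 161 and 94.9 CPM in WT and 118, 109 and 100 CPM in Dlx2OE. WT sample 3 was the lowest of all 6 samples, so that the groups overlapped, and the log2 fold change was -0.35 ± 0.20 (SE, adjusted p = 0.273 by edgeR). Without WT sample 3 it was -0.57 (adjusted p = 0.0226). Cycs has many processed copies in the genome, and 22.6% of its exon windows of 100 bases occur in another gene.

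Complex IV had the lowest summed level relative to WT, at 63.6% ± 6.49 of the WT mean (SD, n = 3). Its 10 ubiquitous subunits all had negative log2 fold changes, from -0.91 to -0.29 with a median of -0.64, and Cox7c and Cox4i1 passed the test. Adjusted p-values of the other 8 ranged from 0.0515 for Cox6c to 0.284 for Cox7a2. Without WT sample 3, 9 of the 10 passed.

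Cox7c (ENSMUSG00000017778, chromosome 13, 86044816 to 86046904, reverse strand) is a small membrane-spanning subunit. It was measured at 237, 249 and 145 CPM in WT and at 119, 117 and 98.6 CPM in Dlx2OE. The Dlx2OE samples were all below the lowest WT sample, sample 3, and the log2 fold change was -0.91 ± 0.20 (SE, adjusted p = 0.0406 by edgeR). Since 16.2% of its windows of 100 bases occur elsewhere, among them in the processed genes Gm10012 and Gm12338, its level is uncertain. Cox4i1 (ENSMUSG00000031818, chromosome 8, 120668222 to 120674207, forward strand) encodes the common form of subunit 4, at which ATP regulates the enzyme. Its level was 133, 143 and 123 CPM in WT and 107, 92.5 and 87.7 CPM in Dlx2OE. The WT samples lay close together here and above all Dlx2OE samples, with a log2 fold change of -0.48 ± 0.11 (SE, adjusted p = 0.0462 by edgeR). The call was lost with RLE factors (adjusted p = 0.0506), with library size alone (0.0582), with the replicate block (0.0553) and with the length and GC correction (-0.10, adjusted p = 0.445). Exons of Emc8 on the other strand cover 9.94% of the Cox4i1 exons. Among the subunits that did not pass were Cox5b (-0.83, adjusted p = 0.0561), which carries a zinc ion, and Cox5a (-0.59, adjusted p = 0.0583), which binds a thyroid hormone derivative. Cox7a2l, known as a supercomplex factor, had a log2 fold change of -0.72 ± 0.20 (SE, adjusted p = 0.0669 by edgeR). This value was within the range of the ubiquitous subunits, and its function in these mice was not tested.

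**Figure D2:**
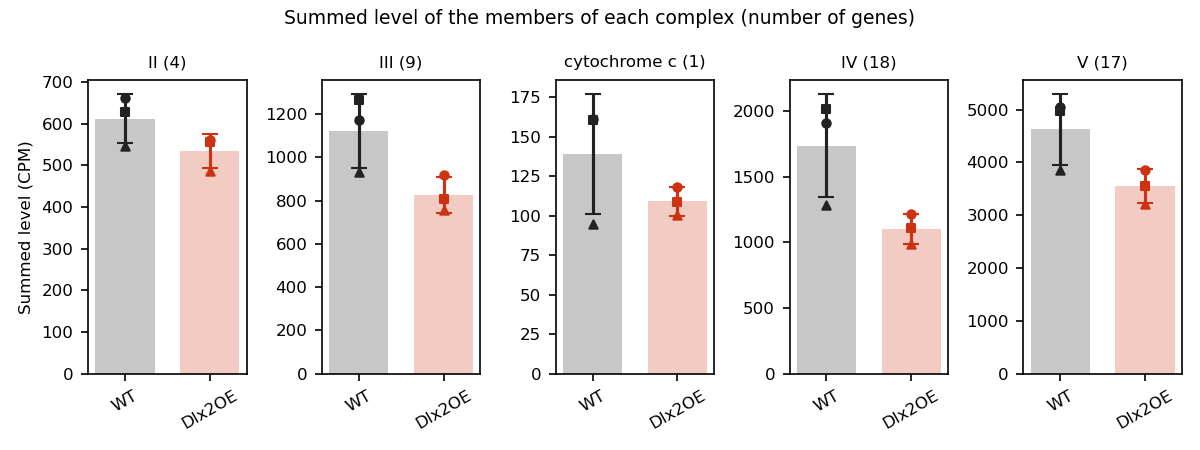
Summed CPM (y axis, from 0) of the genes of each complex in WT and Dlx2OE, with bars for the mean, error bars for the SD over 3 samples and points for the samples (triangles, sample 3). The Dlx2OE mean was lowest relative to WT in complex IV (63.6%) and highest in complex II (87.3%), and WT sample 3 was the lowest WT sample in each.

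Tissue isoforms of complex IV were scarce at this stage, and none of the 3 that could be tested passed, also without adjustment or by DESeq2. Cox4i2, an isoform induced by low oxygen in several tissues, had 3.35, 4.38 and 3.14 CPM in WT and 6.38, 4.04 and 2.22 CPM in Dlx2OE. The highest and the lowest value both belonged to Dlx2OE samples, and the log2 fold change was 0.22 ± 0.37 (SE, adjusted p = 0.720 by edgeR). Per exon length, Cox4i2 made up 5.06% ± 0.54 of the sum of Cox4i1 and Cox4i2 in WT and 7.71% ± 2.88 in Dlx2OE (SD, n = 3 each), and the groups overlapped. The difference of 2.66 percentage points was 1.45 by raw counts and 1.51 by the longest transcript. Cox6b2, known from testis, had 11.4, 13.4 and 8.69 CPM in WT and 8.47, 9.33 and 7.50 CPM in Dlx2OE, giving a log2 fold change of -0.40 ± 0.20 (SE, adjusted p = 0.223 by edgeR). Its common counterpart Cox6b1 had 182, 185 and 120 CPM in WT and 109, 109 and 95.2 CPM in Dlx2OE, a log2 fold change of -0.64 ± 0.17 (SE, adjusted p = 0.0621 by edgeR). Both genes were lower in the mean, and the share of Cox6b2 in the pair was 3.84%, 4.43% and 4.43% in WT and 4.73%, 5.19% and 4.79% in Dlx2OE. The shares did not overlap between groups and differed by 0.67 percentage points. By level, 16.7% of all genes had all 3 Dlx2OE samples above all 3 WT samples, and the share was not tested. The muscle isoform Cox7a1 was near the detection limit, at 0.068, 0.66 and 0.38 CPM in WT and 0.34, 0.29 and 0.52 CPM in Dlx2OE. No order of the groups could be read from it (log2 fold change 0.017 ± 0.67, SE, adjusted p = 0.989 by edgeR), and its counterpart Cox7a2 had a log2 fold change of -0.29 ± 0.17 (SE, adjusted p = 0.284 by edgeR).

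The 4 isoforms left out of the main edgeR test for low counts were at or near 0. Of these, DESeq2 called Cox6a2 lower (adjusted p = 0.0317). Cox6a2 of heart and skeletal muscle had 13, 62 and 9 counts in WT samples 1 to 3 and 2, 5 and 6 counts in Dlx2OE samples 1 to 3, so that WT sample 2 held most of them. WT sample 2 also had the highest summed level of the 8 skeletal muscle markers, 317 CPM, against 158 and 176 CPM in the other WT samples and 67.6 to 191 CPM in Dlx2OE, and the part of muscle cells in Cox6a2 was not tested. Its counterpart Cox6a1 was at 172, 199 and 140 CPM in WT and at 140, 120 and 119 CPM in Dlx2OE, giving a log2 fold change of -0.43 ± 0.14 (SE, adjusted p = 0.0992 by edgeR). Cox8b had at most 5 counts in a sample, and Cox7b2 and Cox8c at most 1. A count of 0 allows up to 3 counts, so that no fold change is given for these 3 genes. Their counterparts were measured well, Cox8a with a log2 fold change of -0.65 ± 0.19 (SE, adjusted p = 0.0767 by edgeR) and Cox7b with -0.70 ± 0.20 (SE, adjusted p = 0.0718 by edgeR).

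**Figure D3:**
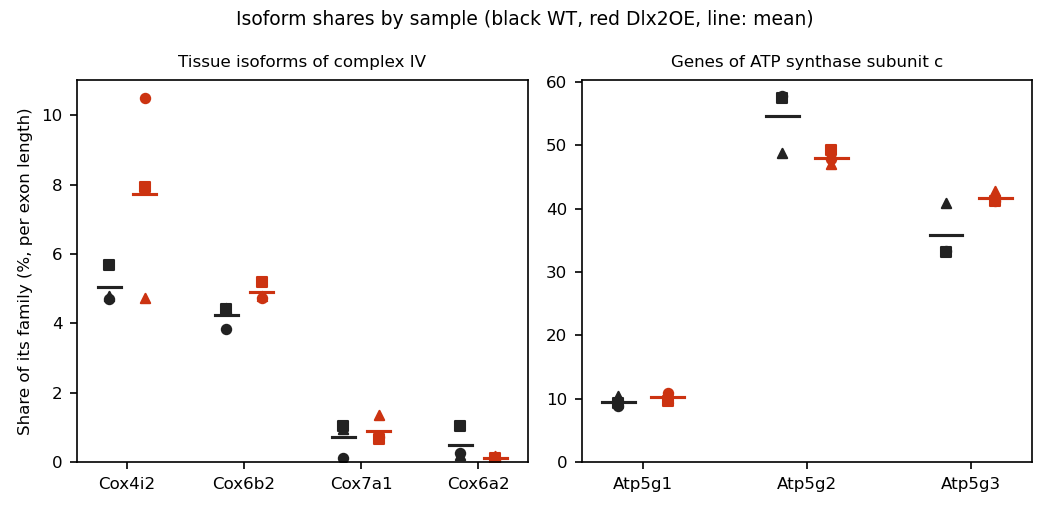
Share of each gene in its family (y axis, % of the summed per-exon-length level) for complex IV isoforms (left) and the genes of subunit c (right), with points for samples, lines for means and triangles for sample 3. The Cox6b2 shares of Dlx2OE (red) lie above those of WT (black), and for Atp5g2 and Atp5g3 WT sample 3 lies with or next to the Dlx2OE samples.

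Complex V, the ATP synthase, had 3 of 17 genes called lower and a median log2 fold change of -0.53. The genes of the alpha and beta subunits, Atp5a1 (-0.20 ± 0.13, SE, adjusted p = 0.331 by edgeR) and Atp5b (-0.18 ± 0.15, SE, adjusted p = 0.450 by edgeR), did not pass. Per exon length these had the highest WT means of the 49 genes, 304 CPM per kilobase for Atp5a1 and 272 for Atp5b, with Cox8a next at 269. Atp5b had 1274, 1181 and 997 CPM in WT and 1092, 1031 and 928 CPM in Dlx2OE, and WT sample 3 was inside the Dlx2OE range. Within the same catalytic head, the gene of the small epsilon subunit passed the test. Atp5e (ENSMUSG00000016252, chromosome 2, 174461072 to 174464105, reverse strand) had 141, 146 and 90.5 CPM in WT and 73.3, 65.3 and 61.0 CPM in Dlx2OE. The groups did not overlap, and its log2 fold change was -0.92 ± 0.18 (SE, adjusted p = 0.0320 by edgeR).

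Atp5k (ENSMUSG00000050856, chromosome 5, 108433244 to 108434448, reverse strand), which encodes subunit e, a membrane protein at the interface of ATP synthase dimers, had the lowest log2 fold change and the smallest adjusted p of the 45 genes. Its level was 69.8, 60.8 and 40.9 CPM in WT and 25.6, 28.9 and 22.5 CPM in Dlx2OE. Every Dlx2OE sample was well below WT sample 3, with a log2 fold change of -1.16 ± 0.20 (SE, adjusted p = 0.0211 by edgeR). The other small membrane subunits had log2 fold changes of -0.82 for subunit f (Atp5j2, adjusted p = 0.0577), -0.80 for Atp5mpl (adjusted p = 0.0567) and -0.46 for subunit g (Atp5l, adjusted p = 0.150). Subunits e and g lie together in the dimer interface. In the peripheral stalk, which holds the head still, Atp5j (ENSMUSG00000022890, chromosome 16, 84827866 to 84835625, reverse strand) of coupling factor F6 had 169, 168 and 116 CPM in WT and 94.4, 94.6 and 82.5 CPM in Dlx2OE. Its groups did not overlap, and the log2 fold change was -0.74 ± 0.16 (SE, adjusted p = 0.0360 by edgeR). The other stalk genes, Atp5o, Atp5h and Atp5f1, had values from -0.69 to -0.38 and did not pass. Exons of other genes cover 12.7% of the Atp5j exons, among them those of Gabpa, which encodes the DNA-binding subunit of GABP, and 47.9% of the Atp5o exons.

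The rotor ring of the synthase is built of subunit c, for which Atp5g1, Atp5g2 and Atp5g3 encode the same mature protein. The mean share of Atp5g2 was smaller and that of Atp5g3 larger in Dlx2OE, with WT sample 3 close to the Dlx2OE samples. Atp5g2 gave 57.8%, 57.5% and 48.7% of the summed per-length level in WT and 47.8%, 49.2% and 47.1% in Dlx2OE. Atp5g3 gave 33.2%, 33.2% and 40.9% in WT and 41.3%, 41.2% and 42.7% in Dlx2OE. The Atp5g2 shares overlapped through WT sample 3. Those of Atp5g3 did not overlap, but the lowest share of Dlx2OE lay close to that of WT sample 3. Of the Atp5g2 windows of 100 bases, 34.7% occur in other genes, including Gm10175 and Gm10231. None of the 3 genes passed by edgeR, all 3 had an unadjusted p under 0.05 and 1 passed by DESeq2, with log2 fold changes of -0.69 for Atp5g2 (adjusted p = 0.0714), -0.37 for Atp5g1 (adjusted p = 0.118) and -0.25 for Atp5g3 (adjusted p = 0.164). The sum over complex V was at 76.6% ± 6.96 of the WT mean (SD, n = 3), and that over all 49 genes at 74.3% ± 6.81.

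The genes that fell have short transcripts. The 8 called genes had longest coding transcripts of 371 to 809 bases. Across the 45 genes the log2 fold change was higher at a greater log2 length (Pearson r = 0.57, Spearman rho = 0.58, n = 45 genes that share the same 6 libraries). Over 17490 tested genes with a known length, r was 0.22 and rho 0.34. Among genes with transcripts under 600 bases, 5 of 11 respiratory chain genes were called lower with a median of -0.75, and the 644 other genes had a median of -0.36 with 13.0% called lower. From 600 to under 1000 bases, 3 of 15 were called with a median of -0.69, against a median of -0.39 and 11.0% of 1012 other genes. At 1000 bases or more 0 of 19 were called by edgeR, 7 had an unadjusted p under 0.05 and DESeq2 called 4. Their medians were -0.42 from 1000 to under 1500 bases, -0.19 from 1500 to under 3000 bases and -0.35 at 3000 bases or more, against -0.28, -0.10 and 0.13 in other genes.

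A loess correction for transcript length and GC content reduced the differences. The median log2 fold change of the 45 genes went from -0.48 to -0.20, and 6 were called lower, against 2.58% of all genes. With the replicate block added to the correction, 0 were called by edgeR (22 at an unadjusted p under 0.05). The 6 called without the block were Uqcrb (-0.65, adjusted p = 0.0322), Uqcr11 (-0.70, adjusted p = 0.0448), Uqcr10 (-0.62, adjusted p = 0.0470), Cox7c (-0.68, adjusted p = 0.0480), Atp5k (-0.70, adjusted p = 0.0303) and Atp5e (-0.46, adjusted p = 0.0477). Cox4i1 (-0.10, adjusted p = 0.445) and Atp5j (-0.35, adjusted p = 0.0751) no longer passed. By complex, the corrected median was -0.11 in complex II, -0.31 in complex III, -0.19 in complex IV and -0.29 in complex V. In the same classes of length, corrected medians of the respiratory chain genes under 600 bases and from 600 to under 1000 bases were -0.31 and -0.29, and those of other genes were 0.013 and -0.036. After the correction the relation to length was r = 0.19 and rho = 0.26 over the 45 genes. DESeq2, without the correction, called 24 of the 49 genes lower, against 7.82% of all genes with an adjusted p. Of the 45 genes tested by edgeR it called 23.

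**Figure D4:**
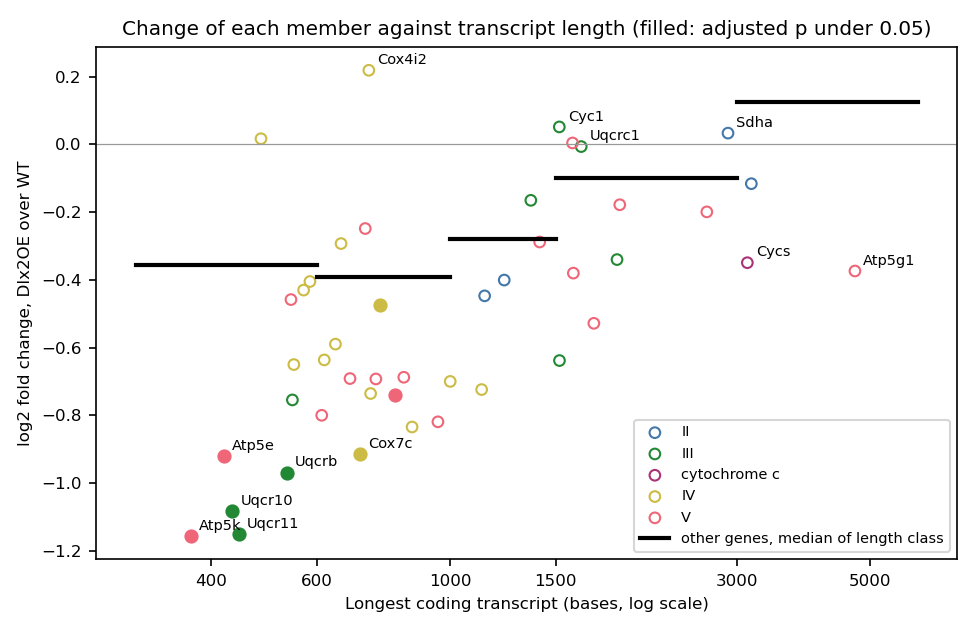
Log2 fold change (y axis) of the 45 tested genes against the length of the longest coding transcript (x axis, log scale), with colors for complexes and filled points for an adjusted p under 0.05. Black lines give the median of other genes in each length class (the first class has no lower and the last no upper limit); the called genes are all at or under 809 bases and lie below the line of their class.

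**Figure D5:**
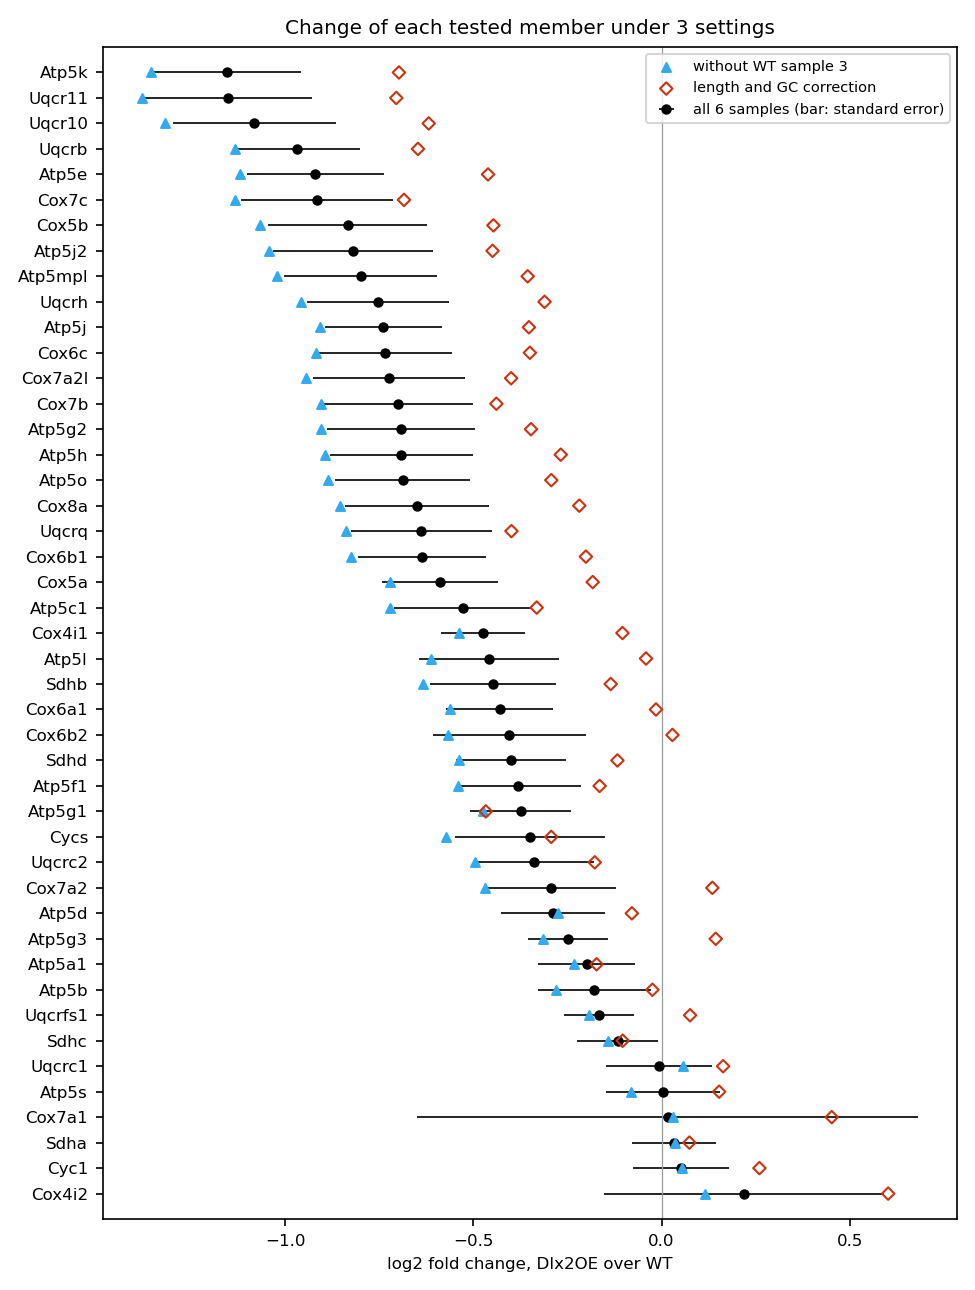
Log2 fold change (x axis) of each tested gene with all 6 samples (black, bars are the standard error), without WT sample 3 (blue) and with the length and GC correction (red). Leaving out WT sample 3 moved most genes further from 0, and the correction moved most of them toward 0.

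Some of the mtDNA-encoded partners fell as well. Of 13 protein-coding mtDNA genes 12 were tested, and 5 were called lower, against 3.46% of all genes. The count was 8 without WT sample 3 and 5 with the length and GC correction. In all 12, every Dlx2OE sample was below every WT sample, where 17.3% of all genes were so ordered. Their median log2 fold change was -0.74. mt-Co2, a catalytic subunit of complex IV, was measured at 19.3, 20.2 and 14.5 CPM in WT and at 5.50, 4.84 and 4.58 CPM in Dlx2OE. Its log2 fold change was -1.85 ± 0.19 (SE, adjusted p = 0.00541 by edgeR). For mt-Atp6, the proton channel of complex V, levels were 11.5, 11.5 and 9.65 CPM in WT and 4.46, 3.63 and 2.70 CPM in Dlx2OE, giving a log2 fold change of -1.60 ± 0.23 (SE, adjusted p = 0.0128 by edgeR). In both genes every Dlx2OE sample was below the lowest WT sample. Only reads with a single alignment were counted, and copies of mtDNA in the nuclear genome can lower such counts. The other genes called were mt-Nd4l, mt-Co3 and mt-Nd4, with WT means of 1.09, 15.5 and 3044 CPM. Of the called genes only mt-Nd4 (log2 fold change -0.81) was counted at a high level. The genes with far higher WT means, mt-Co1 (18795 CPM, -0.53, adjusted p = 0.182 by edgeR) and mt-Cytb (8251 CPM, -0.63, adjusted p = 0.109 by edgeR), did not pass. Levels of mt-Co2 and mt-Atp6 thus come from few counts, and the part of uncounted reads in their fold changes was not tested. Among 35 nuclear subunit genes of complex I, 13 were called lower, against 3.46% of all genes, with a median of -0.71, led by Ndufb8 (-0.89, adjusted p = 0.0136) and Ndufa3 (-1.23, adjusted p = 0.0185). Without WT sample 3 this count was 29, and with the length and GC correction it was 5 with a median of -0.35. The 78 cytoplasmic ribosomal protein genes, which are also short, had 25 called lower, against 3.46% of all genes, and a median of -0.78. Their count was 72 without WT sample 3 and 14 with the length and GC correction, where the median was -0.46.

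Among factors that assemble complexes II to V, a few fell. Of 37 listed genes 34 were tested, 5 were called lower and 0 higher by edgeR, against 3.46% and 2.99% of all genes, and the median log2 fold change was -0.13. DESeq2 called 8 lower and 1 higher. By edgeR 9 were called lower without WT sample 3 and 3 with the length and GC correction. Whether they differed from the subunits was not tested. Atpif1, the inhibitor of ATP hydrolysis by the synthase, had 25.7, 30.7 and 21.7 CPM in WT and 12.9, 14.1 and 14.0 CPM in Dlx2OE. The groups did not overlap, and the log2 fold change was -0.93 ± 0.15 (SE, adjusted p = 0.0196 by edgeR). Cox14, which acts in the translation and assembly of the complex IV subunit COX1, had 58.3, 63.2 and 42.9 CPM in WT and 33.4, 29.1 and 27.1 CPM in Dlx2OE. This was a log2 fold change of -0.88 ± 0.16 (SE, adjusted p = 0.0257 by edgeR), again without overlap. The other genes called were the complex III factors Uqcc2 (-1.06) and Uqcc3 (-0.96) and the complex V factor Fmc1 (-1.18). Cox20, Sco2 and Pet117 were listed at 0 in all 6 samples. A further 2 genes had an unadjusted p under 0.05 as higher, Lyrm7 and Lrpprc.

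Of 21 regulators of nuclear mitochondrial genes, 0 were called lower by edgeR and 1, Mycn, was called higher, which as a share is near the 2.99% of all genes. At an unadjusted p under 0.05, 2 were lower and 4 higher, and DESeq2 called 1 lower and 2 higher. With the length and GC correction edgeR called 1 lower. Mycn, a growth-promoting transcription factor, had 41.2, 33.4 and 38.3 CPM in WT and 61.0, 57.9 and 60.5 CPM in Dlx2OE. The groups were well apart, with a log2 fold change of 0.67 ± 0.10 (SE, adjusted p = 0.0174 by edgeR). Esrrg, an orphan receptor of oxidative tissues, was next with 4.17, 4.45 and 5.23 CPM in WT and 2.16, 1.94 and 2.88 CPM in Dlx2OE, and it missed the threshold (-0.99 ± 0.24, SE, adjusted p = 0.0511 by edgeR). The motif-binding factors themselves did not pass. Nrf1 was at 0.11 (adjusted p = 0.384), Gabpa at -0.060 (adjusted p = 0.743) and Yy1 at 0.14 (adjusted p = 0.499). Ppargc1a, a coactivator of mitochondrial biogenesis, was at -0.58 (adjusted p = 0.125).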

How the data were processed

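Bulk RNA-seq of maxillary prominences at E12.5 was analysed in 3 WT and 3 Dlx2OE samples, grouped by the sample labels. The authors prepared poly-A libraries, mapped the reads to mm10 with STAR 2.7.3a, counted them per gene with HTSeq 0.12.4 and deposited raw counts without normalization. The annotation release and the strand setting are not given in the sources used here, so that overlapping genes cannot be told apart with certainty. Lines for unassigned reads were kept out of the tests. Symbols, positions and lengths came from GENCODE M21, which holds 53706 of the 53801 identifiers, and promoters from RefSeq.

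The tests used edgeR 4.0.16 under R 4.3.3 (filterByExpr with a minimum count of 10, TMM factors, quasi-likelihood F test on genotype alone, Benjamini-Hochberg adjustment over 17514 genes). Standard errors were derived from the log2 fold change and its F value, and logarithms of levels used a prior count of 2. The correction for transcript length and GC content was a loess fit with a span of 0.5, entered as offsets. Scripts were checked on simulated data. There the main test recovered 41.5% of 200 genes given a log2 fold change of 1 in size, with 10 false calls. At a size of 2 it recovered 83.5% of 200 genes, with 13 false calls. The floor of 3 counts covers counting error only. Standard errors and p-values also take in the spread between these RNA samples, each of which may hold several embryos. With totals of 26155500 to 31308813 counts, counting error was small beside that spread for all but the rarest isoforms.

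The alternatives were DESeq2 1.42.0, RLE factors, library size alone, no filter, a replicate block, at least 10 counts per sample, exclusion of mtDNA and haemoglobin genes, the length and GC correction with and without the block, and each sample left out. Transcript length in place of exon length for isoform shares was chosen after seeing the data. The gene group, the comparison lists and the marker lists were chosen with earlier results of these data known. Full values are given for genes with an adjusted p under 0.05, the 2 smallest p-values of each complex and list, Cycs, Cyc1 and the isoforms of complex IV with their counterparts. Sdha, Atp5b, subunit c and some genes named with a fold change alone were added after their values were seen.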

Additional observations from a re-analysis of the deposited data

How the results depend on the processing

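The 8 genes called lower kept a negative log2 fold change under all 15 alternatives computed for each gene. The number called lower moved from 8 of 45 to 24 of 49 with DESeq2 (23 of the same 45). It moved to 23 of 49 with no filter on low counts and to 18 of 45 with the replicate block. It was 7 with RLE factors or library size alone, 10 with at least 10 counts in every sample, 8 without mtDNA and haemoglobin genes, 3 with a log2 fold change past 1, and 0 with the length and GC correction plus the replicate block (22 at an unadjusted p under 0.05 by edgeR, and 37 of all genes called). With single samples left out it ranged from 0 to 29. The numbers do not pair the samples, since deviations of same-numbered samples correlated at -0.072, -0.21 and 0.073. The median of -0.48 stayed between -0.63 and -0.41 except with the length and GC correction, at -0.20 without and with the replicate block. The difference of the Cox6b2 share, 0.67 percentage points per exon length, was 0.99 in raw counts and 1.04 by the longest transcript.

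Signs changed only in 10 genes that did not pass the test. With the length and GC correction, without and then with the block, values became positive for Atp5g3 (0.14 and 0.15), Cox7a2 (0.13 and 0.14), Uqcrc1 (0.16 and 0.17), Uqcrfs1 (0.076 and 0.077) and Cox6b2 (0.029 and 0.028). Uqcrc1 was 0.054 by library size alone. With no filter, Atp5s was -0.019 and Cox7a1 was -0.0031. With single samples left out, Atp5s ranged from -0.080 to 0.053, Cox4i2 from -0.22 to 0.52, Cox7a1 from -0.47 to 0.71, Cyc1 from -0.069 to 0.12, Sdha from -0.037 to 0.095 and Uqcrc1 from -0.13 to 0.063. The cause of these changes was not tested. Depth limits the isoforms with few counts.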
